A study of Mus musculus with 48 samples.

Results

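2610528A11Rik and AA467197 are 2 of 18194 genes that had a probe set of their own on the arrays. They were taken by name and had been chosen by measured values, the large differences between treated and vehicle skin at week 13. Those differences are therefore given as a description, without a test. Of the 2 genes, both passed the filter on low values (log2 signal above 6.70, the median of the whole table, in at least 3 arrays). 2610528A11Rik passed only through week 13, where it was high, so its passing is no evidence of a difference.

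The study measured skin of C3H/HeJ mice, an inbred strain that can develop alopecia areata, the autoimmune loss of hair, after receiving a skin graft from an affected mouse, and asked whether blocking the interleukin-15 pathway prevents it. All groups are of this strain, and neither genotypes, ages, doses nor the grafting of single groups are in the labels. The agents were il15rb, an antibody to the beta receptor chain that interleukin-2 and interleukin-15 share, jak3i, known to be tofacitinib, and jak12i, known to be ruxolitinib, both inhibitors of Janus kinases, which pass on cytokine signals. Each was paired with a vehicle group of phosphate-buffered saline (PBS) from knowledge of the study rather than the labels: jak3i with PBS pump, jak12i with PBS gavage and il15rb with PBS ip (intraperitoneal). At week 5 there were 4 arrays of sham, 4 of PBS ip and 3 of il15rb skin. At week 6 there were PBS pump (n = 3), jak3i (n = 5), PBS gavage (n = 5) and jak12i (n = 5) arrays, and at week 13 each of 3 vehicle and 3 treated groups had 3. 1 array titled PBS ip, week 5, carries the treatment label of il15rb and was put in no group, which leaves 47 of 48 arrays in 13 groups. What sham skin received is not given in the labels, and replicates are not tied to separate animals, so p-values measure the spread between these samples only.

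2610528A11Rik is the mouse gene of GPR15L, a small secreted peptide of epithelia. It is a ligand of GPR15, a receptor on T cells that guides them to gut and skin, and it is also known to act on microbes. AA467197, also called Nmes1 and C15orf48 in human, codes for a small mitochondrial protein related to NDUFA4, a subunit of cytochrome c oxidase that it is known to replace in inflammation. Its transcript also carries the microRNA miR-147, which is known to target Ndufa4. In whole skin, fewer cells of a type and less RNA per cell cannot be told apart.

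2610528A11Rik lies on chromosome 14 from 37102140 to 37110101 on the minus strand, and AA467197 on chromosome 2 from 122637887 to 122641076 on the plus strand (RefSeq, GRCm38.p6). Mir147 lies within AA467197, from 122640803 to 122640881. Each gene was read by 1 probe set, 1435639_at and 1434046_at, and no probe for the microRNA was used. The 250 bases upstream of each start site are shown because both genes moved together between vehicle and treated skin while differing from array to array within it. They cover chr14:37110102-37110351 (minus strand) and chr2:122637637-122637886 (plus strand), are written 5′ to 3′ in the direction of the gene, and have the motif matches in capitals.
2610528A11Rik: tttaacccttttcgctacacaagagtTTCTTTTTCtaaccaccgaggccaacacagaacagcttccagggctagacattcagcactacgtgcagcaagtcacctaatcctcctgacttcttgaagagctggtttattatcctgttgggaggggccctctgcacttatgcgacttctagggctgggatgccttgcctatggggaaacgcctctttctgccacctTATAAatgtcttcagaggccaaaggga
AA467197: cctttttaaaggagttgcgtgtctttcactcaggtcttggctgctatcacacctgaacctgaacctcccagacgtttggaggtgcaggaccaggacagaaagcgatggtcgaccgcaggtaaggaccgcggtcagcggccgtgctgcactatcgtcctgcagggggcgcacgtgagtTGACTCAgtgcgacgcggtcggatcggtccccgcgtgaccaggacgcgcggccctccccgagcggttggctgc
The 2610528A11Rik window held TATAA (searched on the plus strand only) at -27 to -23, counted back from the start site, as did 16% of 32851 RefSeq promoters of this length. It also held the interferon regulatory factor pair GAAANNGAA, on the opposite strand, at -224 to -216, which 7.13% of the promoters had. The AA467197 window held the AP-1 motif TGANTCA at -73 to -67, found in 6.75%. Neither held the STAT motif TTCNNNGAA (7.02%) or the NF-kappa-B consensus (3.90%), searched like the other motifs on both strands. A match is a description of letters, not a bound site.

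Both genes were high in vehicle skin of week 13 and low elsewhere, a contrast between weeks that was not tested. 2610528A11Rik had log2 signals of 8.59, 9.84 and 9.28 in PBS ip, 9.53, 6.89 and 10.84 in PBS pump, and 9.29, 10.11 and 10.85 in PBS gavage. It had 4.97, 6.92 and 4.72 in il15rb, 5.88, 6.13 and 4.88 in jak3i, and 4.70, 5.50 and 4.59 in jak12i. No treated group overlapped its own vehicle group, but the highest treated array (il15rb, 6.92) lay just above the lowest vehicle array (PBS pump replicate 2, 6.89). AA467197 had 10.82, 10.13 and 11.01 in PBS ip, 11.01, 10.25 and 9.93 in PBS pump, and 9.86, 9.27 and 10.93 in PBS gavage. It had 6.77, 7.20 and 5.53 in il15rb, 7.41, 6.78 and 7.32 in jak3i, and 5.58, 6.86 and 6.89 in jak12i. Every vehicle array of AA467197 lay above every treated one.

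**Figure D1:**
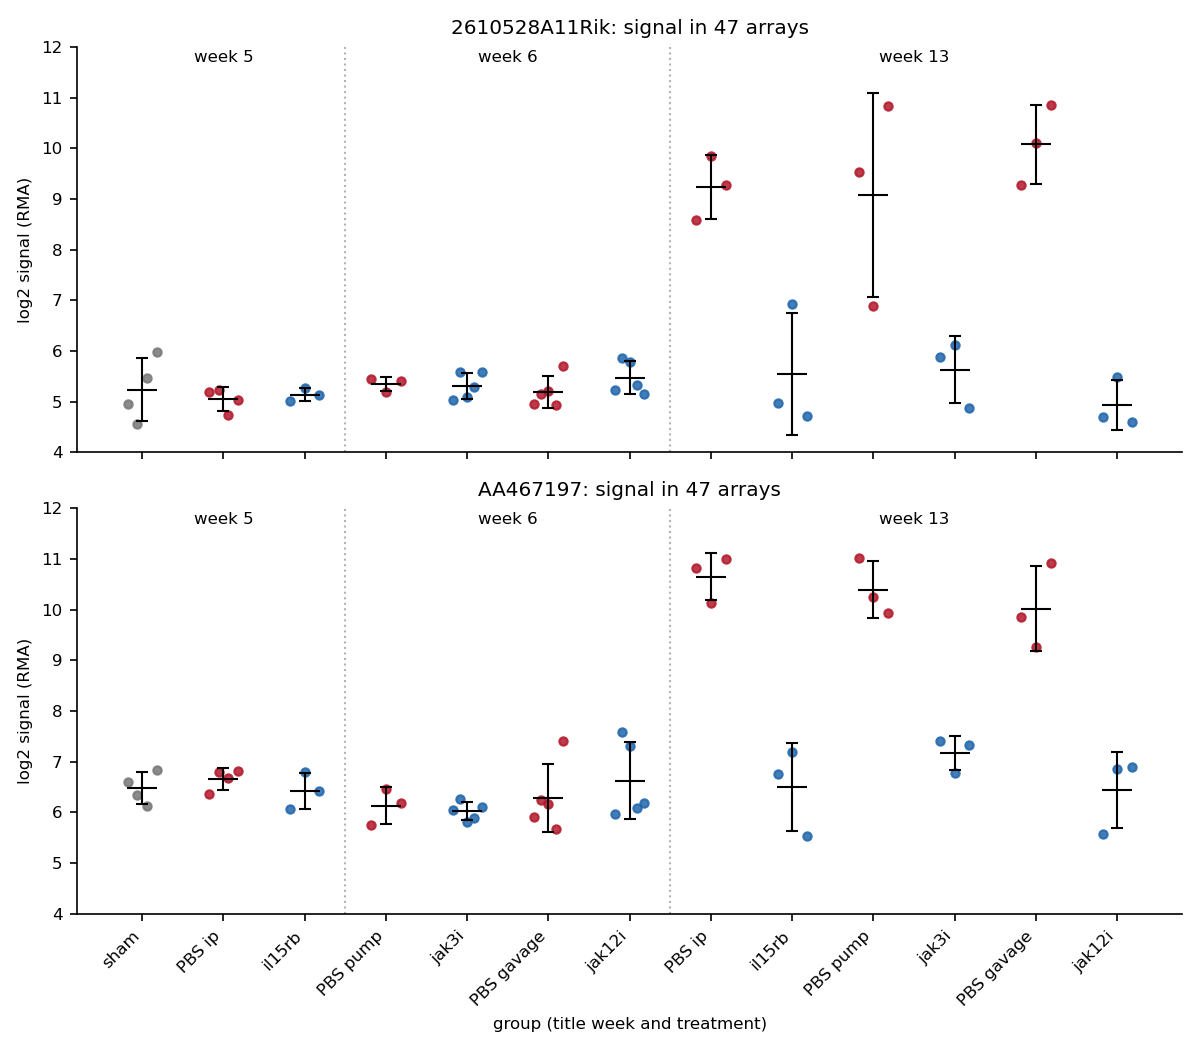
Log2 signal (vertical axis) of both genes in each of 47 arrays by group (horizontal axis), vehicle arrays in red, treated in blue and sham in grey, with the mean and SD of each group in black. The vehicle arrays of week 13 stand apart, with means of 9.47 for 2610528A11Rik and 10.36 for AA467197, and PBS pump replicate 2 is low for 2610528A11Rik alone (6.89).

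2610528A11Rik averaged 9.47 ± 1.22 (SD, n = 9) in week 13 vehicle skin, 5.37 ± 0.80 (n = 9) in treated skin and 5.26 ± 0.33 (n = 29) in all arrays of weeks 5 and 6. The mean differences from the paired vehicle were -3.70 ± 0.55 (SE) for il15rb, -3.46 ± 0.55 for jak3i and -5.15 ± 0.55 for jak12i. The SE rests on 1 spread shared by all 13 groups, but group SDs ran from 0.13 (il15rb, week 5) to 2.01 (PBS pump, week 13). It is therefore too small for comparisons with PBS pump at week 13 and too large for the narrow early groups. On the linear scale the vehicle mean was 13.0-fold that of il15rb, 10.97-fold that of jak3i and at least 26.1-fold that of jak12i. The last is a bound because the jak12i mean, 4.93, lay below 5.38, the highest lower quartile of any week 13 array, which was used in its place as a floor. The jak3i ratio depended on single vehicle arrays, being 23.5-fold without PBS pump replicate 2 and 5.98-fold without PBS pump replicate 3. Averaged over agents the difference of the measured means was -4.10 ± 0.32, the 4th largest in size of 13648 tested genes. With the floor in place of the jak12i mean, the jak12i difference was -4.70 and the average -3.95.

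AA467197 averaged 10.36 ± 0.62 (n = 9) in week 13 vehicle skin, 6.70 ± 0.69 (n = 9) in treated skin and 6.38 ± 0.49 (n = 29) at weeks 5 and 6. The differences were -4.16 ± 0.44 for il15rb, -3.23 ± 0.44 for jak3i and -3.58 ± 0.44 for jak12i, or 17.8-fold, 9.37-fold and 11.9-fold. Here too the SE uses the shared spread, while group SDs ran from 0.18 (jak3i, week 6) to 0.87 (il15rb, week 13). The mean over agents was -3.65 ± 0.25, the 12th largest. These ranks are what chose the genes. The week 13 contrast was a broad one: limma called 47% of genes at an adjusted p under 0.05, 26.5% higher and 20.5% lower in treated skin. Paired groups did not overlap for 36.8% of genes under il15rb, 29.7% under jak3i and 37% under jak12i, and nothing is read from the members being among them.

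Vehicle routes did not separate at week 13 for either gene (limma, adjusted over all genes). 2610528A11Rik was 10.08 ± 0.78 in PBS gavage, 9.24 ± 0.63 in PBS ip and 9.08 ± 2.01 in PBS pump. PBS pump minus PBS ip was -0.15 ± 0.55 (adjusted p = 0.983, where 0.0513% of genes were called), and PBS gavage minus PBS ip was 0.84 ± 0.55 (adjusted p = 0.623). PBS gavage minus PBS pump was 0.995 ± 0.55 (adjusted p = 0.629, 0.0513% called). Without PBS pump replicate 2, PBS pump minus PBS ip became 0.95 and PBS gavage minus PBS pump -0.10. AA467197 ran in another order, 10.65 ± 0.46 in PBS ip, 10.40 ± 0.55 in PBS pump and 10.02 ± 0.84 in PBS gavage. Its differences were -0.26, -0.63 and -0.38 in the same order (adjusted p = 0.963, 0.646 and 0.858). PBS gavage minus PBS ip called 0% of genes, with 1526 at an unadjusted p under 0.05 17 called after quantile normalization and 855 without PBS ip replicate 2.

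Nor was a difference between the treated groups called for either gene. For 2610528A11Rik, jak3i minus jak12i was 0.70 ± 0.55 (95% interval -0.42 to 1.82, adjusted p = 0.627, 1.31% of genes called), jak3i minus il15rb was 0.09 (-1.03 to 1.21, adjusted p = 0.973, 0.344% called) and jak12i minus il15rb -0.61 (-1.73 to 0.51, adjusted p = 0.799, 0.11% called). The last became 0.08 without il15rb replicate 2. The jak12i mean of 2610528A11Rik, 4.93, lay below the 5.38 used as a floor, so differences from it are limited by signal over background. For AA467197 the same differences were 0.73 ± 0.44 (-0.16 to 1.62, adjusted p = 0.484), 0.67 (-0.21 to 1.56, adjusted p = 0.572) and -0.06 (-0.94 to 0.83, adjusted p = 0.993). The intervals include differences of up to 1.82 and 1.62 for jak3i minus jak12i. In a fit of the week 13 arrays alone limma called 0 genes in these 3 comparisons, with 1111 to 1569 genes at an unadjusted p under 0.05. Routes and doses differed or are not given, so this is no comparison at matched dose.

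Setting each agent against its own vehicle gave the same picture. For 2610528A11Rik the jak3i difference minus the jak12i difference was 1.70 ± 0.78, with an unadjusted p of 0.0366 and an adjusted p of 0.737 (limma, 0.00733% of genes called). It was 0.60 without PBS pump replicate 2 and 2.57 without PBS pump replicate 3, and 1.25 with the floor in place of the jak12i mean. For il15rb minus jak12i it was 1.45 ± 0.78 (adjusted p = 0.783, 0.00733% called), or 1.003 with the floor and 0.76 without il15rb replicate 2. For il15rb minus jak3i it was -0.24 ± 0.78 (adjusted p = 0.985, 0.00733% called), becoming 0.86 without PBS pump replicate 2. For AA467197 the 3 values were 0.35, -0.58 and -0.93 (adjusted p = 0.944, 0.905 and 0.887). The agents' effects on either gene were thus not shown to differ.

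At weeks 5 and 6 both genes were at low levels in every group, and no comparison passed. 2610528A11Rik ranged from 4.56 to 5.97 over 29 arrays, near the lower quartile of all signals, which reached 5.43 at week 5 and 5.61 at week 6. At week 5 it had 5.19, 5.24, 4.73 and 5.04 in PBS ip, 5.01, 5.27 and 5.13 in il15rb, and 4.95, 4.56, 5.47 and 5.97 in sham. The highest early array was thus a sham array, and all groups overlapped. At week 6 the group means were 5.19 ± 0.31 in PBS gavage, 5.34 ± 0.14 in PBS pump, 5.47 ± 0.33 in jak12i and 5.31 ± 0.26 in jak3i. The differences were -0.19 ± 0.48 for PBS ip minus sham (0.0293% of genes called), 0.09 ± 0.52 for il15rb minus PBS ip (0.0733%), -0.03 ± 0.49 for jak3i minus PBS pump (4.1%) and 0.28 ± 0.43 for jak12i minus PBS gavage (9.59%). Limma's adjusted p-values lay between 0.717 and 1.

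AA467197 was low too, yet some single arrays stood above the rest. At week 6 it had 5.91, 6.24, 6.16, 5.67 and 7.42 in PBS gavage, 5.75, 6.47 and 6.19 in PBS pump, 5.96, 7.59, 7.31, 6.08 and 6.19 in jak12i, and 6.05, 6.26, 5.81, 5.88 and 6.11 in jak3i. A PBS gavage array and a pair of jak12i arrays thus stood above the other arrays of that week, which reached 6.47. At week 5 it averaged 6.66 ± 0.21 in PBS ip, 6.43 ± 0.36 in il15rb and 6.48 ± 0.31 in sham, with all groups overlapping. The differences were 0.18 ± 0.38 for PBS ip minus sham, -0.23 ± 0.41 for il15rb minus PBS ip, -0.11 ± 0.39 for jak3i minus PBS pump and 0.35 ± 0.34 for jak12i minus PBS gavage (limma, adjusted p from 0.547 to 1). Between routes at week 6, PBS gavage minus PBS pump was -0.15 ± 0.49 for 2610528A11Rik and 0.14 ± 0.39 for AA467197 (adjusted p = 0.837 and 0.806), although 37.2% of genes were called. For il15rb minus sham at week 5 the values were -0.10 and -0.05 (adjusted p = 0.967 and 0.982, 0.0293% called).

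**Figure D2:**
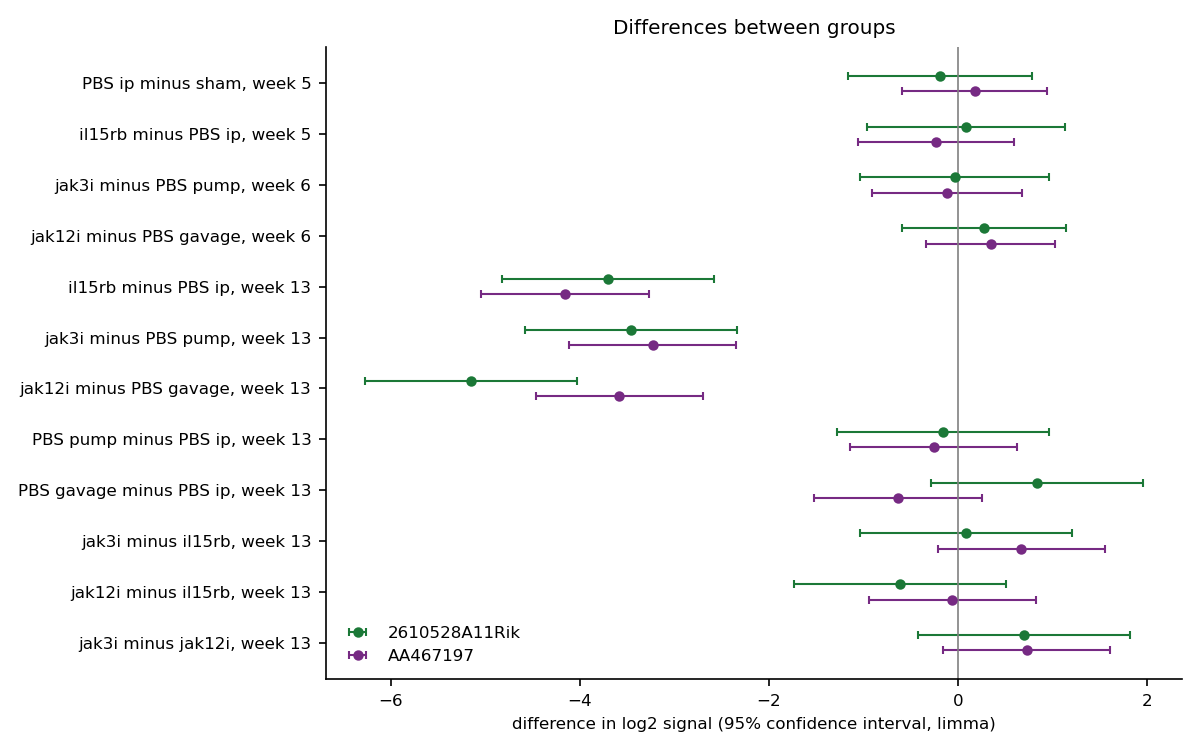
Difference in log2 signal (horizontal axis) for 12 group comparisons (vertical axis), 2610528A11Rik in green and AA467197 in purple, as limma estimates with 95% confidence intervals. The 3 week 13 comparisons with vehicle, which chose the genes, lie between -5.15 and -3.23. Their intervals are drawn as a description and are no test. Intervals of the other comparisons include 0.

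The 2 genes did not follow each other within vehicle skin. Their Pearson correlation was 0.876 over the 18 week 13 arrays, which form separate vehicle and treated clusters, but -0.11 within the 9 vehicle arrays and 0.51 within the 9 treated ones. PBS pump replicate 2 shows this in a single array: 2610528A11Rik was at its vehicle minimum there, 6.89, while AA467197 was at its vehicle median, 10.25. PBS gavage replicate 2 did the reverse, with 10.11 and 9.27.

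By Pearson correlation 2610528A11Rik followed Krt6b, a keratin of stressed and wounded epidermis and of the hair follicle's companion layer. Krt6b was 11.79, 12.09 and 12.92 in PBS gavage, 11.50, 11.64 and 12.30 in PBS ip, and 11.72, 9.81 and 12.48 in PBS pump, with the low value again in PBS pump replicate 2. That array was also among those with low skeletal muscle genes, and the part of tissue content in the relation was not tested. It was 9.65, 12.40 and 5.78 in il15rb, 7.82, 10.21 and 7.68 in jak3i, and 5.54, 6.75 and 5.89 in jak12i, so treated and vehicle arrays overlapped. Within vehicle arrays the correlation with 2610528A11Rik was 0.928 (exact permutation p = 0.00133, adjusted over 8 relations 0.0107, n = 9), with a Spearman rho of 0.767 (exact permutation p = 0.0214, adjusted 0.0856). Within treated arrays it was 0.830 (exact permutation p = 0.00666, adjusted 0.0267, n = 9), with a rho of 0.867 (exact permutation p = 0.00451, adjusted 0.0361). Without the 2 arrays farthest from the median of Krt6b the correlations were 0.682 and 0.397, so the relation in treated skin rests on those arrays. The median of the treated 2610528A11Rik values, 4.97, lay below the 5.38 used as a floor, so many of their ranks are ranks of signals near background. With group means removed the correlations were 0.933 and 0.824.

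The relation of AA467197 to Krt6b did not pass, with correlations of 0.100 in vehicle and 0.532 in treated arrays (exact permutation p = 0.821 and 0.134, adjusted 0.991 and 0.356, n = 9 each; rho -0.02 and 0.45). Without the 2 farthest arrays they were -0.25 and 0.589, and with group means removed 0.275 and 0.615, so in treated skin the value without those arrays was above that of 2610528A11Rik (0.397). Whether the genes differ in this relation was not tested. Against the mean signal of 19 interferon gamma targets, AA467197 had 0.254 and -0.01 (exact permutation p = 0.525 and 0.979, both adjusted to 0.991, n = 9 each; rho 0.283 and -0.10). With group means removed, the values were 0.535 and 0.763, where those with Krt6b were 0.275 and 0.615. 2610528A11Rik had 0.171 and -0.0042 (exact permutation p = 0.636 and 0.991, both adjusted to 0.991, n = 9 each; rho 0.217 and -0.07). With group means removed, 2610528A11Rik had 0.211 and 0.461. All rho values of these 6 relations had an adjusted permutation p of at least 0.613.

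**Figure D3:**
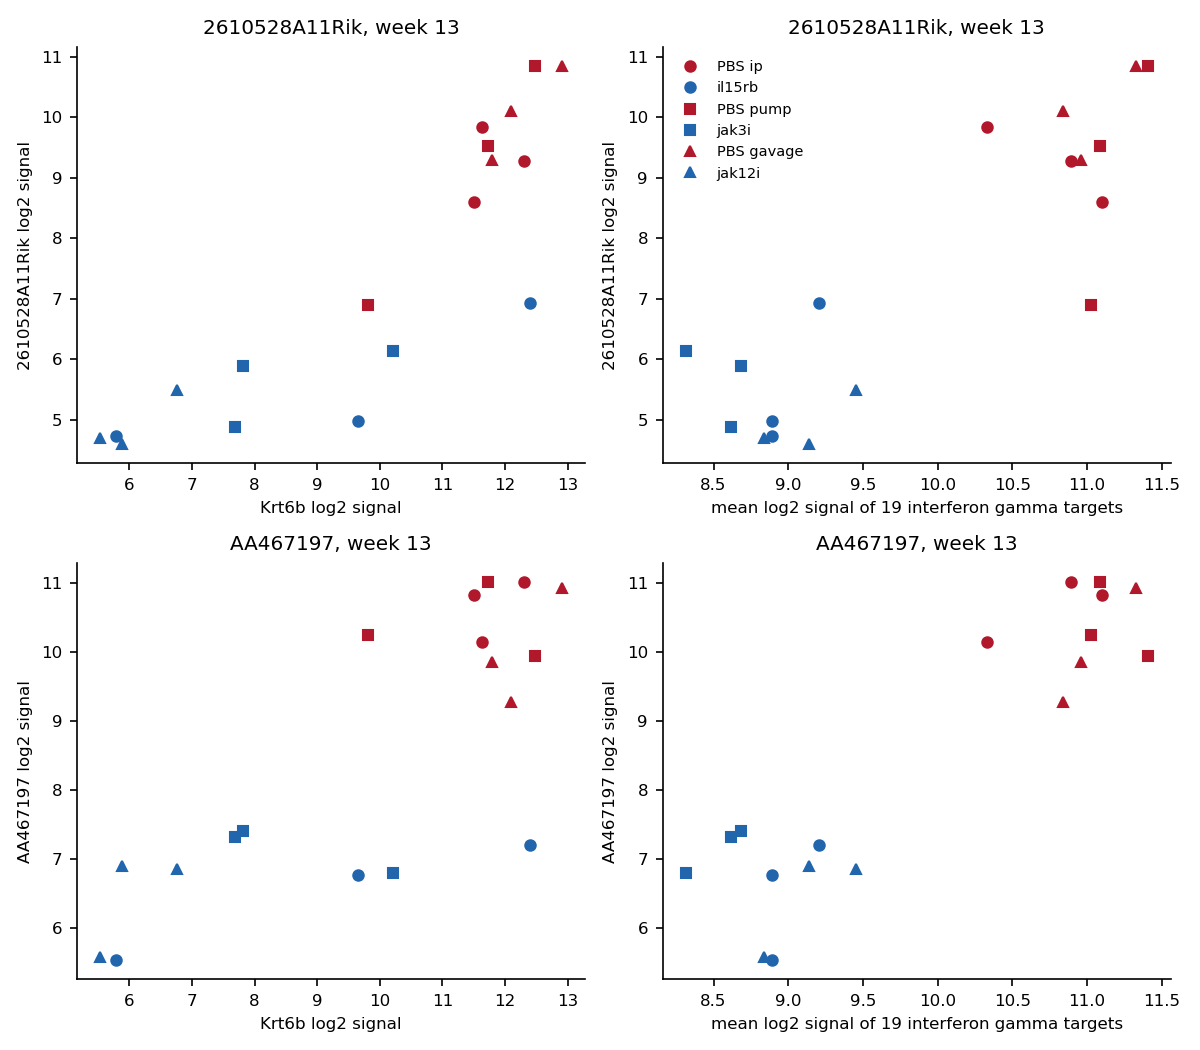
Log2 signal of each gene (vertical axes) in the 18 week 13 arrays against Krt6b (left) and the mean of 19 interferon gamma targets (right), on log2 axes, vehicle in red and treated in blue, the marker shape giving the agent and its vehicle. 2610528A11Rik rises with Krt6b inside both clusters (r = 0.928 and 0.830, or 0.682 and 0.397 without the 2 arrays farthest from the Krt6b median). The interferon gamma targets separate the clusters. Inside treated skin their r is near 0, and with group means removed it is 0.461 for 2610528A11Rik and 0.763 for AA467197.

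The single arrays of week 6 in which AA467197 was high were high in Krt6b too. Krt6b was at 8.01 in PBS gavage replicate 5, where AA467197 was 7.42, and at 8.01 and 7.84 in jak12i replicates 2 and 3, where AA467197 was 7.59 and 7.31. The same 3 arrays held the 3 highest 2610528A11Rik values of week 6, 5.71, 5.86 and 5.78. Hair shaft keratins averaged 11.21 and 10.93 in the pair of jak12i arrays and 7.01 in the PBS gavage array, where all other week 6 arrays were lower. These early values are spread over treated and vehicle groups alike, and their part in the week 13 relation was not tested.

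**Figure D4:**
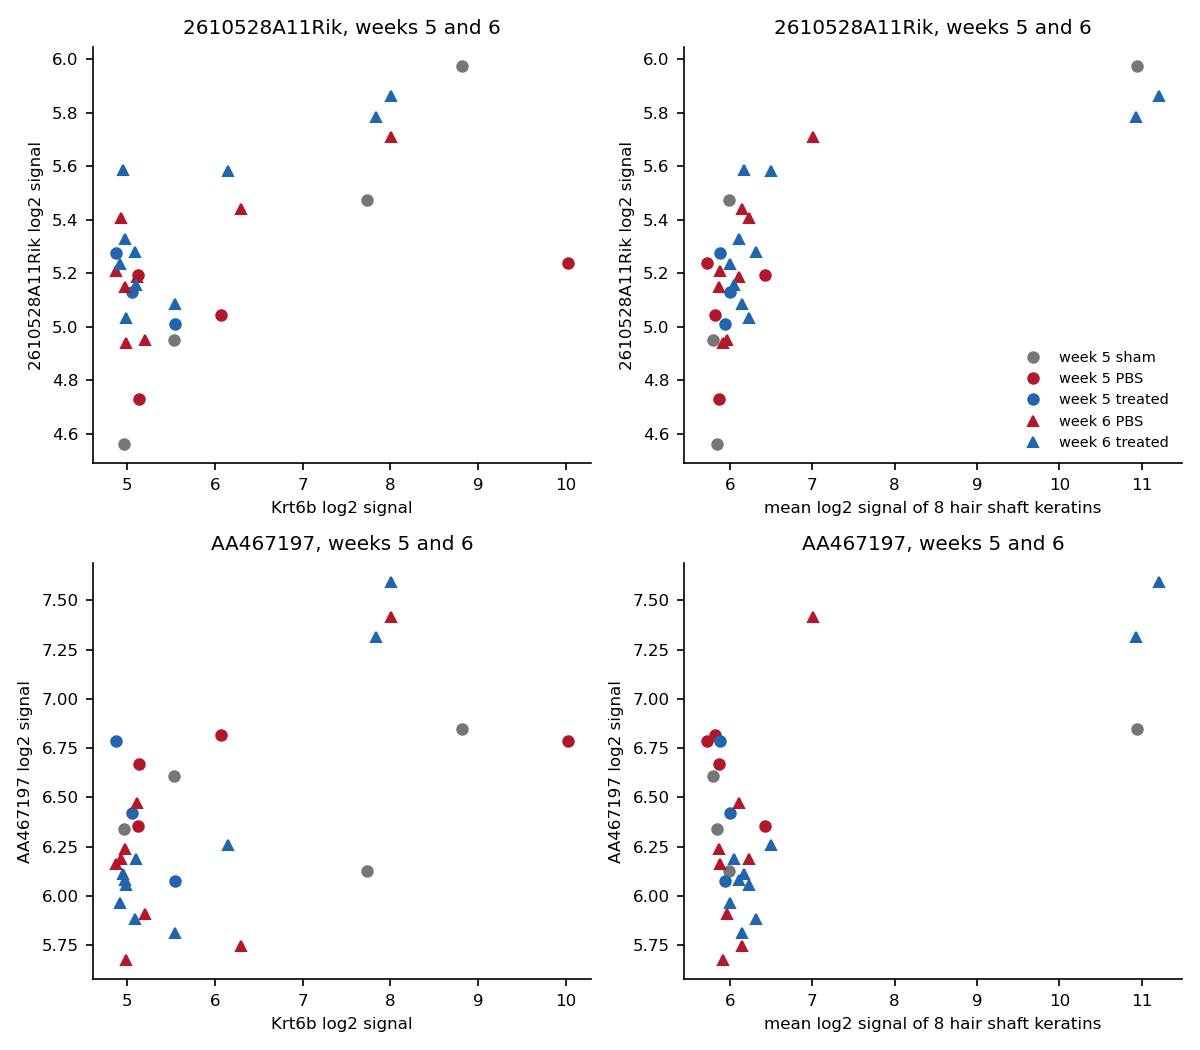
Log2 signal of each gene (vertical axes) in the 29 arrays of weeks 5 and 6 against Krt6b (left) and the mean of 8 hair shaft keratins (right), on log2 axes, with circles for week 5, triangles for week 6, vehicle in red, treated in blue and sham in grey. The 3 week 6 arrays with AA467197 at 7.31 to 7.59 lie apart at Krt6b values of 7.84 to 8.01.

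Genes most like each member over the 18 week 13 arrays were taken by Pearson correlation among 13647 genes, which mostly follows the split between vehicle and treated skin. For 2610528A11Rik they were Stfa3, Slc34a2, Egln3, Slfn9 and Fam162a, with r from 0.934 to 0.966. Within vehicle and treated arrays Stfa3, of the stefin family of cysteine protease inhibitors, had 0.877 and 0.902, and Slc34a2, a sodium phosphate cotransporter, 0.867 and 0.784. Stfa3 belongs to a family of near-identical copies, so its probe set may read several. Egln3, a prolyl hydroxylase of the hypoxia response, had 0.772 and 0.713, Fam162a 0.861 and 0.548, and Slfn9 0.549 and 0.606. Over the 29 arrays of weeks 5 and 6, with each week's mean removed, Slfn9 did not keep its sign (-0.11), and the others had 0.357 to 0.591.

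For AA467197 the genes were Cd52, Klk6, AU020206, Klk7 and Pfkp, with r from 0.974 to 0.981. Klk6, a kallikrein protease of skin, had 0.885 in vehicle, 0.850 in treated and 0.730 in early arrays. Klk7, the kallikrein that sheds the outer skin layer, had 0.910, 0.725 and 0.333. Cd52, a surface peptide of white blood cells, had 0.797, 0.808 and 0.467, and Pfkp, a glycolytic phosphofructokinase, had 0.825, 0.844 and 0.386. AU020206 had 0.744, 0.819 and 0.467. Krt6b ranked 77 for 2610528A11Rik and 820 for AA467197, and Ifng 102 and 90. AA467197 itself ranked 84 for 2610528A11Rik, which in turn ranked 353 for AA467197, and over weeks 5 and 6 the members correlated at 0.566.

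**Figure D5:**
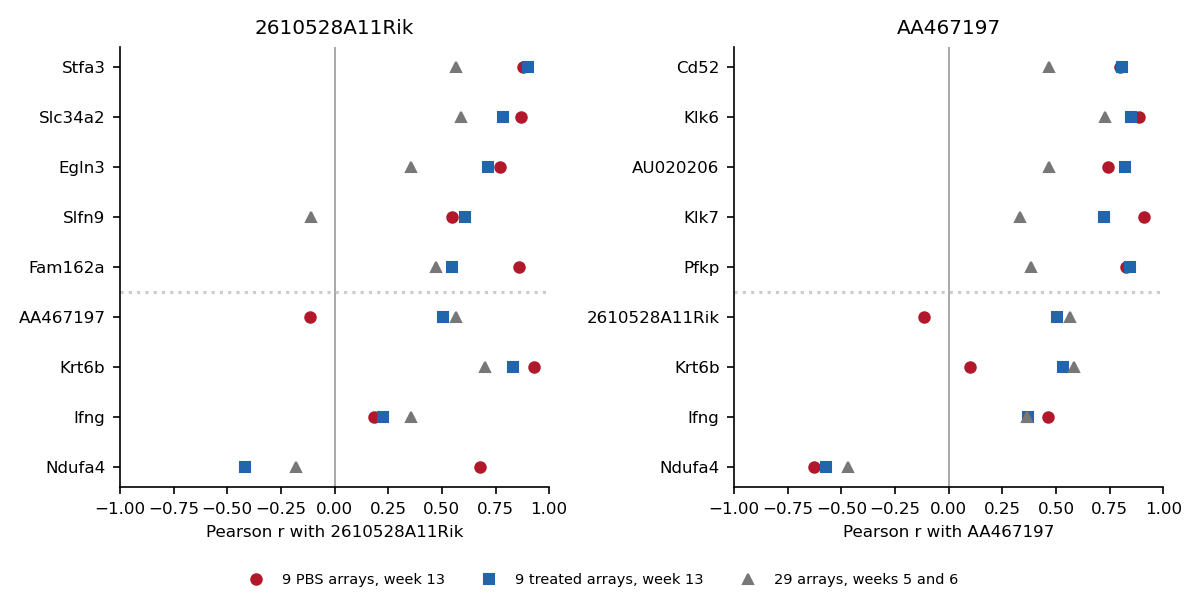
Pearson correlation (horizontal axes) of named genes (vertical axes) with each member within the 9 vehicle arrays (red), the 9 treated arrays (blue) and the 29 arrays of weeks 5 and 6 with week means removed (grey). Above the dotted line are the 5 genes most like the member over all 18 week 13 arrays, and below it other named genes. Within vehicle arrays the 2 members are at -0.11 with each other, whereas Krt6b is at 0.928 with 2610528A11Rik.

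The receptor of the 2610528A11Rik peptide could not be followed. Gpr15 stayed between 4.77 and 5.58 in all grouped arrays and was not tested, nor were Ccr4, Ccr8 and Ccr10. Of 14 receptors and ligands of skin homing, 10 were tested at week 13, of which 8 were lower in treated skin, 1 higher and 1 uncalled. The median difference was -0.98 against 0.01 for all genes, of which 20.5% were lower and 26.5% higher. Cxcr6, a receptor of resident T cells, fell by 2.78 ± 0.20, its ligand Cxcl16 by 1.04 ± 0.09, and Itgae, the integrin that holds T cells to epithelium, by 1.88 ± 0.16 (limma, adjusted p = 1.23e-13, 5.85e-12 and 6.87e-12). The higher gene, named after its value was seen, was Ccl27a (0.30 ± 0.09, adjusted p = 0.00425). The T cell markers averaged 7.65 to 8.41 in vehicle and 6.77 to 7.24 in treated arrays, with 6 of 8 tested markers lower, and their part in these differences was not tested.

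Ndufa4, the subunit that the AA467197 protein is known to replace, was 12.09 ± 0.29 in vehicle and 12.38 ± 0.13 in treated skin, n = 9 each. It rose by 0.29 ± 0.08 (limma, adjusted p = 0.00259). By agent it passed under il15rb (0.46, adjusted p = 0.0123), and had 0.24 under jak3i (adjusted p = 0.239) and 0.17 under jak12i (adjusted p = 0.387). Its correlation with AA467197 was -0.63 in vehicle and -0.57 in treated arrays, given as a description. Of 11 tested genes of cytochrome c oxidase and the NDUFA4 family, 4 were lower, 3 higher and 4 uncalled, with a median of -0.02. Among all tested genes 20.5% were lower and 26.5% higher, so nothing is read from these counts. The related Ndufa4l2 fell by 0.78 ± 0.11 and Cox6a1 by 0.16 ± 0.04 (limma, adjusted p = 5.14e-07 and 0.00188). Without the 3 arrays that had low skeletal muscle genes, Ndufa4 had 0.20 (limma, adjusted p = 0.0323), and the list 3 lower and 2 higher. The arrays left out were PBS ip replicate 3 and PBS pump replicate 2 of week 13, and PBS gavage replicate 5 of week 6. Over the agents together, all 6 muscle markers and all 4 tested adipocyte markers were higher in treated skin. Mean muscle signals ran from 7.36 to 13.00 in vehicle and 12.24 to 13.85 in treated arrays. By agent, 6 muscle markers were called higher under il15rb, 1 under jak3i and 0 under jak12i, and 4, 3 and 4 adipocyte markers. Of all 13648 genes, 2059, 1320 and 1580 were higher in that order. The muscle median was 2.19, or 1.19 without the 3 arrays. The part of muscle and adipocyte content in the Ndufa4 difference was not tested.

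Most epithelial response genes tested were lower too over the agents together. Of 20 antimicrobial and injury genes, 13 were tested, 10 lower, 1 higher and 2 uncalled, with a median of -1.35, where 20.5% of all genes were lower. By agent, 7 of 13 were lower under il15rb, 8 under jak12i (1 higher) and 3 under jak3i, with medians of -1.37, -1.30 and -1.08. Of all 13648 tested genes, 1452, 1406 and 863 were lower in the same order. Krt16, an injury keratin, fell by 3.00 ± 0.36, Krt17, another, by 1.16 ± 0.13, and the protease inhibitor Slpi fell by 1.46 ± 0.16 (limma, adjusted p = 1.37e-08, 7.96e-09 and 2.18e-09). Krt6b fell by 3.84 ± 0.69 (adjusted p = 2e-05), passing alone under jak12i (-6.21, adjusted p = 0.000244) and not under il15rb (-2.54, adjusted p = 0.113) or jak3i (-2.77, adjusted p = 0.107). The higher gene, named after its value was seen, was the constitutive defensin Defb1 (0.41 ± 0.12, adjusted p = 0.00535). Keratinocyte markers were called in both directions, in a contrast where 26.5% of all genes were higher and 20.5% lower. Of 7 suprabasal markers tested, 2 were lower (Ivl -0.36, Krt1 -0.34), 1 higher (Sbsn 0.12) and 4 uncalled, with mean signals of 13.00 to 13.44 in vehicle and 12.98 to 13.39 in treated arrays. Of 6 basal markers, 3 were higher (Krt15 0.96, Col17a1 0.48, Itga6 0.21), 2 lower (Krt14 -0.40, Krt5 -0.20) and 1 uncalled, with means of 12.19 to 12.87 in vehicle and 12.45 to 12.87 in treated arrays. These 8 genes were named after their values were seen. Hair shaft keratins were lower in 7 of 8 over all agents, with 8 of 8 lower under jak12i (1406 of all 13648 genes) and 0 of 8 called under il15rb or jak3i. Their mean signal was 10.21 ± 1.38 in vehicle, 7.46 ± 2.11 in il15rb, 10.86 ± 0.98 in jak3i and 6.195 ± 0.51 in jak12i skin. The part of keratinocyte and hair shaft content in the members' differences was not tested.

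Genes induced by interferon gamma and by NF-kappa-B or interleukin-17 fell as well over the agents together, where 20.5% of all genes were lower. All 19 interferon gamma targets tested of 20 were lower, with a median of -1.78, among them the chemokine Cxcl10 at -3.97 ± 0.27, the regulator Irf1 at -1.73 ± 0.13 and the peptide transporter Tap1 at -1.42 ± 0.11. All 19 were also lower under each agent alone, where 1452 (il15rb), 863 (jak3i) and 1406 (jak12i) of all 13648 genes were lower. Ifng itself fell by 1.95 ± 0.15, from between 5.62 and 7.19 in vehicle arrays to between 4.32 and 4.94 in treated arrays (limma, adjusted p = 7.13e-13). The treated values lay below the 5.38 used as a floor, so the size of this fall is limited by signal over background. Of 14 NF-kappa-B and interleukin-17 induced genes, 9 were tested, 8 lower and 1 uncalled, with a median of -0.72, led by the chemokine Ccl2 (-1.92 ± 0.19), Zc3h12a (-0.70 ± 0.07) and Icam1 (-0.89 ± 0.10). At weeks 5 and 6, where neither member passed, the interferon gamma targets had medians of -1.01 under il15rb with 0 called, -0.28 under jak3i with 1 lower and -0.70 under jak12i with 7 lower. Of all 13648 genes, 10, 497 and 1106 were lower in the same order.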

How the data were processed

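Skin RNA was hybridised to 48 Affymetrix mouse arrays. The deposited values are log2 signals per probe set, made by the authors with RMA per the submitters' processing notes (version not given in the sources used here), from RNA extracted with a column kit and labelled with biotin per the labels' protocols. Of 45101 probe sets, 34958 named 1 gene, 932 several and 9211 none, which were left out; 34754 symbols were updated through Entrez identifiers. For each gene the probe set of highest mean was used (9012 of 18194 genes had several), and 13648 genes passed the filter. RMA leaves no count of molecules, and precision is limited by the number of arrays. Upper quartiles of the arrays were 8.47 to 8.68 at week 5, 8.15 to 8.35 at week 6 and 8.68 to 8.78 at week 13, so levels were tested within weeks only. Arrays of a group correlated at 0.973 to 0.996.

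Groups came from titles. One limma model (limma 3.58.1, R 4.3.3) fitted a mean for each of 13 groups over 47 arrays with a shared spread, with Benjamini-Hochberg adjustment over all tested genes at 0.05, after a check on simulated data. Correlations were tested by exact permutation (n = 9) or 100000 resamples. Replicate numbers are not said to pair samples, and the main fit used no pairing. The correlation of same-numbered residuals ran from -0.49 to 0.24 over 22 pairs, which cannot settle whether samples were paired. Motifs were searched in the RefSeq promoter table. The members and lists were chosen with earlier results of these data known. The named genes are the members, Ifng, Krt6b, Gpr15 and Ndufa4, up to 3 genes of smallest p in each list, and the 5 genes most like each member. The alternatives were quantile normalization, array medians, mean over probe sets, no filter, a replicate block, other sets of arrays and each array left out.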

Additional observations from a re-analysis of the deposited data

Results flagged for a closer look

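The differences between treated and vehicle skin were larger at week 13 than at the earlier week for both genes. For 2610528A11Rik the week 13 difference minus the earlier one was -3.79 for il15rb, -3.42 for jak3i and -5.43 for jak12i. For AA467197 it was -3.93 for il15rb, -3.12 for jak3i and -3.93 for jak12i. No p is given, because the week 13 values chose the genes.

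Krt6b stood apart in PBS gavage replicate 5 of week 6, at 8.01 where the other 4 arrays had 4.87 to 5.20. AA467197 was at 7.42 in that array, which also had the lowest skeletal muscle genes of its week. Ifng was at 5.42 in jak3i replicate 5 of week 6, apart from its group but below 5.61, the highest lower quartile of that week, so near background. Of 30 groups of 4 to 5 arrays looked at, chance sets about 5% apart in this way.

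The week 5 array with conflicting labels, used in no comparison, had an AA467197 signal of 6.91, just above the highest of the week 5 sham and PBS ip arrays, 6.84, and a 2610528A11Rik signal of 4.78.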

How the results depend on the processing

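For both genes, every week 13 difference from vehicle kept its direction and every early difference stayed uncalled under all alternatives and with each array left out. The week 13 values chose the genes, so their kept direction is a description and no support. Leave-one-out ranges at week 13 were -4.39 to -3.29 (il15rb), -4.56 to -2.58 (jak3i) and -5.55 to -4.77 (jak12i) for 2610528A11Rik, and -4.51 to -3.67, -3.46 to -2.92 and -3.95 to -3.12 for AA467197. With single arrays left out, 9 uncalled 2610528A11Rik differences and 5 of AA467197 changed sign, of which 4 of 2610528A11Rik and 0 of AA467197 moved by over 1 SE. Leaving out the 3 arrays with low muscle genes gave 0.97 for PBS pump minus PBS ip, -0.10 for PBS gavage minus PBS pump and 0.88 for the il15rb minus jak3i effects. Leave-one-out ranges of these were -1.03 to 0.95, -0.10 to 1.87 and -1.12 to 0.86, and -1.02 to 0.081 for jak12i minus il15rb; the reversals came without PBS pump replicate 2 and il15rb replicate 2. With the replicate number as a replicate block, the mean week 13 differences were -4.10 and -3.65, and every uncalled difference of either gene stayed uncalled. Without the 2 arrays farthest from the median, 2610528A11Rik and Krt6b had r = 0.682 (vehicle) and 0.397 (treated), and AA467197 and the interferon gamma targets 0.598 (vehicle); with group means removed, the interferon relations in treated skin were 0.461 for 2610528A11Rik and 0.763 for AA467197. Counts of genes called were unstable in the small comparisons. Settings beyond normalization and filter were added for them after seeing the data, and each moved count follows the main one, with its setting in parentheses. PBS ip minus sham (4) became 1 (quantile), 2 (no filter), 17 (title week) and 0 (replicate block), and 0 to 3 with an array left out. For il15rb minus PBS ip at week 5 (10) it was 6 (quantile), 52 (title week), 1 (replicate block), 1 or 24 with the conflicting array as PBS ip or il15rb, and 0 to 14 by array. For il15rb minus sham (4) it was 7 (quantile), 9 (medians), 7 (no filter), 8 (probe set means), 77 (title week), 0 (replicate block), 39 with the conflicting array as il15rb, and 0 to 47. At week 6, jak3i minus PBS pump (559) gave 350 (title week), 4355 against all PBS arrays and 165 to 895 by array; jak12i minus PBS gavage (1309) gave 860 (title week, and low-muscle arrays out) and 773 to 1414; PBS gavage minus PBS pump (5078) gave 3292 to 5137. At week 13, PBS pump minus PBS ip (7) gave 13 (probe set means), 1 (title week), 4 (replicate block), 2 (low-muscle) and 1 to 123. PBS gavage minus PBS ip (0) gave 17 (quantile), 1 (medians, no filter, probe set means and replicate block) and 0 to 855. PBS gavage minus PBS pump (7) gave 12 (quantile), 3 (probe set means), 0 (title week, replicate block, low-muscle) and 0 to 15. In the title week alone, jak3i minus il15rb (47), jak12i minus il15rb (15), jak3i minus jak12i (179) and the 3 differences between effects (1 each) all gave 0; jak3i minus il15rb gave 27 (quantile) and 23 to 111, jak12i minus il15rb 0 to 103, and jak3i minus jak12i 52 (replicate block) and 8 to 232. The il15rb minus jak3i effects gave 2 (no filter, probe set means), 0 (replicate block, low-muscle) and 0 to 88; il15rb minus jak12i 0 (quantile, probe set means, low-muscle) and 0 to 69; jak3i minus jak12i 2 (quantile), 4 (no filter), 3 (probe set means) and 1 to 13. The counts of 123, 855, 88 and 69 came without PBS ip replicate 2. Where limma called 0 under a setting other than leaving out an array, 564 to 1569 genes had an unadjusted p under 0.05. The week 13 count of treatments against PBS (6416) was 5862 to 6736 by array. The cause of these moves was not tested. 2610528A11Rik lay near the lower quartile in early and treated skin, so small differences there are limited by signal over background.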

Other observations

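Relations of both genes to Krt6b and to hair shaft keratins within weeks 5 and 6 were added after seeing the data. Their p-values are therefore no independent evidence of a relation. Arrays were permuted over all groups of a week, so differences between groups can enter these p-values. Between PBS gavage and PBS pump at week 6, 37.2% of genes were called. At week 6 (n = 18), AA467197 correlated with Krt6b at 0.848 and with the mean of 8 hair shaft keratins at 0.818 (permutation p = 0.00087 and 0.00052, adjusted over 12 relations 0.00261 and 0.00208). The rank correlations were 0.311 and 0.451 (adjusted permutation p = 0.368 and 0.307), and without the 2 arrays farthest from the median the r values were 0.633 and 0.728. 2610528A11Rik correlated with Krt6b at 0.790 and with the hair shaft mean at 0.724 (permutation p = 0.00017 and 1e-05, adjusted 0.00102 and 0.00012, the latter p being the smallest that 100000 resamples can give). Its rho was 0.375 and 0.732 (adjusted permutation p = 0.307 and 0.0084), and r without the 2 farthest arrays 0.653 and 0.721. The arrays high in AA467197 were jak12i replicates 2 and 3, whose hair shaft means were 11.21 and 10.93 where the other jak12i arrays had 6.00 to 6.11, and PBS gavage replicate 5, at 7.01. At week 5 (n = 11), 2610528A11Rik had 0.634 with Krt6b and 0.752 with the hair shaft mean (permutation p = 0.0400 and 0.0200, adjusted 0.0801 and 0.0480), the latter falling to 0.254 without the 2 farthest arrays. AA467197 had 0.292 and 0.316 (adjusted permutation p = 0.529 for both). Neither gene's relation to the interferon gamma targets passed in either week (adjusted permutation p from 0.318 to 0.733).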
